A study of Mus musculus with 8 samples.

Results

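The genes described here are 10 genes of the neuronal cytoskeleton and axon: Tubb3, Map1b, Map2, Mapt, Dcx, Stmn1, Stmn2, Ncam1, Elavl3 and Gap43. Their symbols were looked up in a RefSeq gene table for mouse (GRCm38.p6, the same coordinates as mm10), and all 10 were among its 21887 protein-coding genes. The set was selected on the peak calls of these same 6 lists, which were known when it was drawn up, so its counts are descriptions and carry no test. Peaks were collected over the annotated span of each gene and 50 kb either side, and each was placed at a gene end (within 1 kb of either annotated end), in the gene body or in the flank.

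All libraries came from wild-type iMOPs, an immortalized mouse line of inner ear (otic) progenitors. The iMOP-derived neurons were grown in Neurobasal medium with N21 supplement, L-glutamine at 2 mM, and K03861, an inhibitor of the kinase CDK2, at 1 µM. Proliferating iMOPs were grown in DMEM/F12 with B27 supplement, carbenicillin at 25 µg/ml and the growth factor bFGF at 20 ng/ml. CHD4, H3K4me3 and p300 were mapped by CUT&Tag, a method that inserts sequencing adapters near antibody-bound chromatin, in 1 library of 500000 cells per antibody and state. Differences between neurons and proliferating cells therefore have no replicate check. The 2 IgG libraries were not analysed here.

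Most of these proteins act on microtubules, the tracks that stiffen an axon and carry its cargo. Tubulin is the building block, microtubule-associated proteins bundle and stabilise the polymer, and stathmins bind free tubulin and promote disassembly. NCAM1 is a cell adhesion molecule, ELAVL3 (HuC) a neuronal RNA-binding protein and GAP-43 a protein of growth cones. CHD4 is the ATPase of the NuRD remodelling and deacetylase complex, H3K4me3 marks active promoters, and p300 is an acetyltransferase of enhancers and promoters.

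The lists held 4599 CHD4 peaks in neurons and 4919 in proliferating cells, 5625 and 7472 H3K4me3 peaks, and 965 and 3144 p300 peaks. Read depth is unknown, so a gene without a listed peak may carry signal below the calling threshold. In these bulk lists, signal in fewer cells and weaker signal per cell cannot be told apart. The otic progenitor markers had H3K4me3 at a gene end in 6 of 8 genes in neurons and 8 of 8 in proliferating cells, with Id3 and Hes1 in proliferating cells only. Markers of otic and spiral ganglion neurons had it in 1 of 8 genes in each state, Prox1, and Neurog1, Neurod1, Isl1, Pou4f1, Gata3 and Syp had no peak of any list in their span or flanks. Hair cell markers had H3K4me3 in 0 of 6 genes in each state, Schwann and satellite glia markers in 1 of 6 (Erbb3) and mesenchyme markers in 1 of 6 (Tbx18). CHD4 was at an end of 6 and 7 of the 8 progenitor markers and of 0 neuron or mesenchyme markers in either state. It was also at the hair cell marker Atoh1 in neurons only and at Erbb3 in proliferating cells only. p300 was at an end of 0 progenitor markers in neurons and 6 of 8 in proliferating cells, and otherwise only of Erbb3 in proliferating cells. Among all protein-coding genes, H3K4me3 was at an end of 30.0% in neurons and 37.6% in proliferating cells, and CHD4 of 9.95% and 11.8%. For p300 the shares were 1.24% and 8.44%. No peak of any list lay in the span or flanks of 35.0%. With 6 or 8 genes a group, these counts do not establish cell identity. Most of the markers that would check the neuron label were thus not listed.

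The 10 genes fell into 6 with peaks and 4 without any. Over the 6 lists, 42 peaks lay in the windows: 24 at gene ends, 8 in gene bodies and 10 in flanks, at Tubb3, Map1b, Map2, Stmn1, Ncam1 and Elavl3. Mapt, Dcx, Stmn2 and Gap43 had no peak of any list in either state.

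Promoter sequences from RefSeq (build GRCm38.p6) were available for 5 of the 10 genes. They are shown because they set the genes with peaks (Tubb3, Map1b, Map2, Elavl3) beside a gene without any (Dcx). Only the bases before the annotated gene span are printed, 5′ to 3′ on the gene's own strand, with each CpG dinucleotide in capitals.
Tubb3 (chr8:123411303-123411552, plus strand): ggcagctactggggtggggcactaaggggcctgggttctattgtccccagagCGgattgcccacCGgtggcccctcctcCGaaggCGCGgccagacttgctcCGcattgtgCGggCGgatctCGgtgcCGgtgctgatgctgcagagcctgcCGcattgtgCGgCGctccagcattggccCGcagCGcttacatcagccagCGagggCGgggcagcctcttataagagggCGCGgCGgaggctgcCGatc
Map1b (chr13:99516603-99516852, minus strand): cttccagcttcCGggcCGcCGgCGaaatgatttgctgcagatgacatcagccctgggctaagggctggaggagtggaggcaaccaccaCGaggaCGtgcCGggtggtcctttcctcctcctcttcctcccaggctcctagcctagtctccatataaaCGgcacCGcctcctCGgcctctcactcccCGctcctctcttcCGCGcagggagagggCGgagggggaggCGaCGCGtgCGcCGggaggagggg
Map2 (chr1:66175079-66175201, plus strand): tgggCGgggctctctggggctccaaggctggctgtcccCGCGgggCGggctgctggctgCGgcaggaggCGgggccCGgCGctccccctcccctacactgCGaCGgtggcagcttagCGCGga
Elavl3 (chr9:22052147-22052273, minus strand): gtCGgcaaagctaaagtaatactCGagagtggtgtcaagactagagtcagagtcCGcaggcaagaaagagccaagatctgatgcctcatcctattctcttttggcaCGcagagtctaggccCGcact
Dcx (chrX:143933397-143933469, minus strand): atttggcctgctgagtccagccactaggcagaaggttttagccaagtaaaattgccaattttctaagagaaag

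The promoter windows of the 4 genes with peaks held more CpG dinucleotides than those of Dcx. In the 300-base windows around the annotated transcript starts (250 bases before to 50 after), CpG dinucleotides numbered 26 at Tubb3, 23 at Map1b, 37 at Map2 and 29 at Elavl3. Both Dcx windows held 3. The printed stretches are parts of these windows, and the 127 bases printed for Elavl3 held 5 CpG dinucleotides at 50.4% GC. Mapt, Stmn2 and Gap43 had no sequence, so Dcx alone stands for the genes without peaks. GC content was 67.3% at Tubb3, 65.7% at Map1b, 77.7% at Map2 and 65.3% at Elavl3, and 43.0% and 44.7% in the Dcx windows. Against 21238 promoter windows of protein-coding genes (median 56.3%), GC content stood at the 97.5th percentile for Map2, the 82.4th for Tubb3, the 78.4th for Map1b and the 77.3rd for Elavl3, and at the 13.7th and 17.0th for the Dcx windows. The ratio of observed to expected CpG stood at the 85.1st percentile for Elavl3, the 75.1st for Map2, the 68.0th for Tubb3 and the 62.04th for Map1b, and at the 22.2nd and 24.3rd for the Dcx windows.

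Short motifs were searched on both strands of the same windows and are a description of letters, not of binding. GGGCGG, the GC box, was found at Tubb3, Map1b, Map2 and Elavl3 and not at Dcx, and in 46.2% of all windows. CCAAT was found at Tubb3, Dcx and Elavl3 (38.2% of all windows) and TATAAA at Map1b, Dcx and Elavl3 (12.6%). The E-box CAGCTG was found at Elavl3 only (15.6%) and CATCTG at Map1b only (14.6%). Of the element bound by the neuronal gene repressor REST, the left part TTCAGCACC was found in 0 of the 5 genes (0.414% of all windows) and the right part GGACAGC at Tubb3 and Map2 (6.88%). No motif searched contains the letters of another.

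CHD4 was listed at a gene end of 5 of the 10 genes in each state, of which 4 were the same. Those listed in both states were Tubb3, Map1b, Stmn1 and Ncam1, with Elavl3 in neurons only and Map2 in proliferating cells only. Over all protein-coding genes, 9.95% had CHD4 at a gene end in neurons and 11.8% in proliferating cells, 2.45% in neurons only, 4.27% in proliferating cells only, 7.49% in both and 85.8% in neither. H3K4me3 was listed at 6 of the 10 in neurons and 5 in proliferating cells, against 30.0% and 37.6% of all genes. Tubb3, Map1b, Map2, Stmn1 and Ncam1 had it in both states, as did 29.4% of all genes, and Elavl3 in neurons only, as did 0.612%. Of all genes, 8.21% had H3K4me3 in proliferating cells only and 61.8% in neither state, where the members numbered 0 and 4. p300 was listed at 1 gene in neurons, Tubb3, and at 2 in proliferating cells, Tubb3 and Stmn1, against 1.24% and 8.44% of all genes. By state, p300 was in both for 0.896% of all genes, in neurons only for 0.343%, in proliferating cells only for 7.54% and in neither for 91.2%, against 1, 0, 1 and 8 members. No end peak of any list was found at 4 members and at 59.2% of all genes. Since the calls were known when the genes were chosen, nothing is read from these comparisons.

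**Figure D1:**
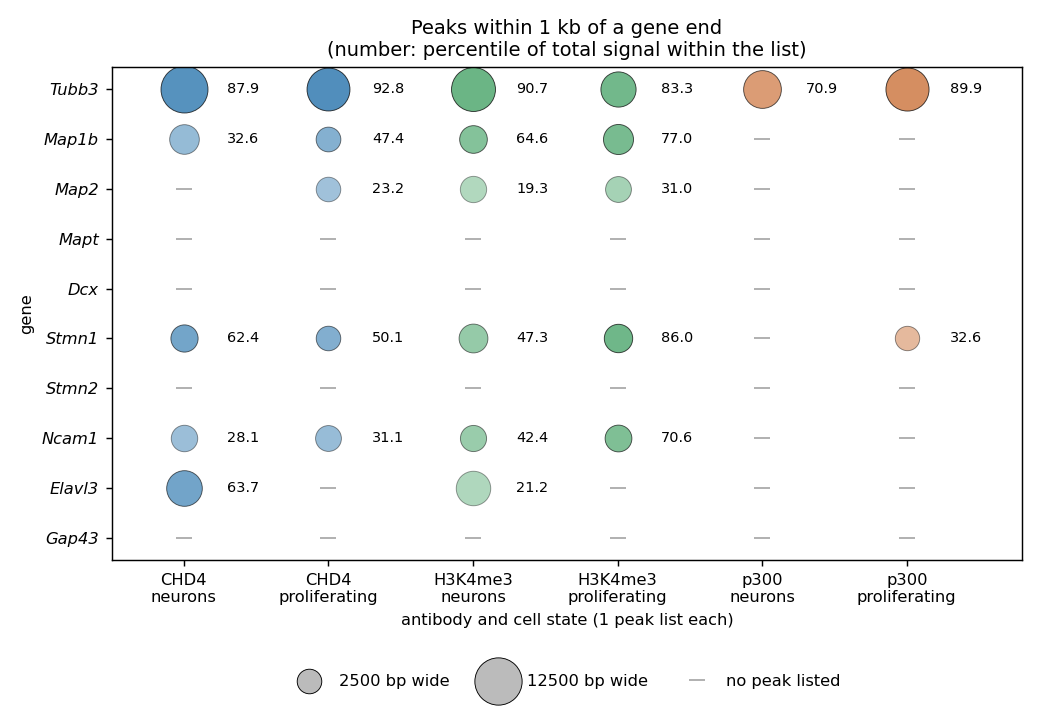
Peaks within 1 kb of an annotated gene end for the 10 genes (rows) in the 6 peak lists (columns, neurons left of proliferating cells), with circle area growing with peak width, darker circles and the printed number giving the percentile of total signal within the list, and a dash where no peak was listed. Tubb3 has a circle in all 6 columns and Mapt, Dcx, Stmn2 and Gap43 in none.

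The strength of a peak is given as its percentile within its own list, the share of that list's peaks with a total signal at or below its own. Total signal is summed over the width of a peak, so the percentile of the highest signal is also given for several peaks. Percentiles in lists of different lengths are set side by side and do not measure a change. The CHD4 peaks at the members' ends had a median at the 62.4th percentile in neurons and the 47.4th in proliferating cells, against the 49.6th and 44.0th for the strongest CHD4 peak at an end over all genes that had it. The members' CHD4 medians cover different genes, with Elavl3 in neurons only and Map2 in proliferating cells only. Tubb3 stood at the 87.9th percentile in neurons and the 92.8th in proliferating cells, and Map1b at the 32.6th and 47.4th. Ncam1 stood at the 28.1st and 31.1st, and Stmn1 at the 62.4th and 50.1st. For H3K4me3 the members' medians were the 44.8th percentile in neurons and the 77.0th in proliferating cells, against the 55.2nd and 56.1st over all such genes. In the percentile of the highest signal, the CHD4 medians of the members were 48.6 in neurons and 49.1 in proliferating cells. The H3K4me3 medians were 13.6 and 61.3, with Elavl3 (4.36) entering in neurons only. The median of this percentile over all genes was not computed.

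Tubb3 encodes the neuronal β-tubulin that is widely used as a marker of young neurons, and it was the only member with a peak at a gene end in every list. Of all genes, 133 of 21887 (0.608%) had that pattern. Tubb3 lies on the plus strand of chromosome 8 (chr8:123411553-123422015). Its CHD4 peak spanned 12350 bp in neurons (chr8:123403851-123416200) and 10100 bp in proliferating cells (chr8:123405701-123415800), at the 87.9th and 92.8th percentiles of total signal. In width these peaks stood at the 92.9th and 97.5th percentiles of their lists, whereas their highest signal stood near the middle, at the 48.6th and 49.1st. Both peaks were wide and of middling height within their lists.

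The H3K4me3 peak at Tubb3 was wider in neurons, at 10650 bp (chr8:123406051-123416700) against 6400 bp (chr8:123408301-123414700) in proliferating cells, and the first contained the whole of the second. The 2 peaks stood at the 90.7th and 83.3rd percentiles of total signal. The p300 peak was narrower in neurons, at 7550 bp (chr8:123408501-123416050) against 10200 bp (chr8:123404501-123414700), at the 70.9th and 89.9th percentiles. The position of highest p300 signal was the same 50-bp step in both states, 1448 bp downstream of the transcript start. The highest CHD4 signal lay 1498 bp downstream of the start in neurons, within 50 bp of the p300 position, and 102 bp upstream of it in proliferating cells, 1550 bp from the p300 position.

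The Tubb3 peaks also reached its upstream neighbours. Mc1r, the melanocortin receptor gene (chr8:123407082-123410744), was covered whole by 4 of the 6 peaks: CHD4 and H3K4me3 in neurons, and CHD4 and p300 in proliferating cells. The neuron p300 peak covered 2244 bp of Mc1r and the proliferating H3K4me3 peak 2444 bp. The neuron CHD4 and proliferating p300 peaks also came within 1 kb of the end of Tcf25. These peaks therefore cannot be assigned to Tubb3 alone, although 4 of the 6 had their highest signal inside the Tubb3 span.

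Another site lay upstream of Tubb3, inside Tcf25 (chr8:123370772-123404174) near its far end, with highest signals 37202 to 37752 bp from the Tubb3 span. CHD4 and H3K4me3 peaks were listed there in both states and p300 in proliferating cells only. The CHD4 peak there stood at the 11.7th percentile in neurons (chr8:123372251-123376950) and the 68.2nd in proliferating cells (chr8:123372451-123377650). The H3K4me3 peak stood at the 55.4th and 86.5th percentiles. Downstream, an H3K4me3 peak at an end of Def8 was listed in proliferating cells only. A CHD4 peak lay in a flank of 1 of the 10 genes in neurons and 2 in proliferating cells, against 22.5% and 25.8% of all genes.

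Map1b, Map2, Mapt and Dcx encode microtubule-associated proteins, and 2 of the 4 had peaks. MAP1B is prominent in growing axons, MAP2 in dendrites and cell bodies, tau (Mapt) in axons, and doublecortin (Dcx) in migrating young neurons. Map1b and Map2 had peaks in both states, and Mapt and Dcx had none.

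At Map1b, on the minus strand (chr13:99421464-99516602), CHD4 and H3K4me3 lay at the end with the transcript start in both states and p300 in neither state. The CHD4 peak spanned 4200 bp in neurons (chr13:99514651-99518850, 32.6th percentile of total signal) and 2550 bp in proliferating cells (chr13:99514701-99517250, 47.4th percentile). The neuron peak contained the whole of the proliferating one and reached 2248 bp beyond the gene end, against 648 bp for the proliferating peak. The position of highest CHD4 signal was the same in both states, 1501 bp downstream of the transcript start, and the H3K4me3 position lay within 100 bp of it in each state. H3K4me3 spanned 3500 bp in neurons and 4350 bp in proliferating cells, at the 64.6th and 77.0th percentiles. All 4 peaks also overlapped the long non-coding RNA gene Gm26559, whose span begins just outside the Map1b end.

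Map1b also had a site inside the gene, with highest signals 71651 to 71751 bp downstream of its transcript start. CHD4 was listed there in both states, over 5300 bp in neurons (chr13:99440451-99445750, 70.1st percentile) and 2750 bp in proliferating cells (chr13:99442751-99445500, 74.2nd percentile). By total signal this site ranked above the CHD4 peak at the transcript start in both states, and it was the wider of the 2 peaks. By highest signal the order turned in neurons, with the site inside the gene at the 46.2nd percentile and the peak at the start at the 54.8th. p300 was listed at the site in proliferating cells only (2500 bp, 72.1st percentile). Its highest signal lay 100 bp from that of CHD4 in proliferating cells, and at the same 50-bp step as that of CHD4 in neurons. An H3K4me3 peak was listed in proliferating cells only, 6200 bp wide but at the 6.12th percentile of total signal and the 0.201st of highest signal. The neuron p300 peak nearest to Map1b lay 1643 kb away.

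At Map2, on the plus strand (chr1:66175202-66442583), H3K4me3 was listed at the transcript start in both states and CHD4 in proliferating cells only. H3K4me3 spanned 3050 bp in neurons and 2900 bp in proliferating cells, at the 19.3rd and 31.0th percentiles, and its highest signal fell on the same 50-bp step. The proliferating CHD4 peak (chr1:66174451-66176950, 2500 bp) stood at the 23.2nd percentile, among the weaker peaks of its list. Inside the gene each state had a CHD4 peak of its own. The neuron peak had its highest signal 51822 bp downstream of the start (chr1:66224901-66229000, 28.5th percentile), within the span of the long non-coding RNA gene Gm51629. The proliferating peak had its highest signal 145622 bp downstream (chr1:66320001-66322400, 13.0th percentile). Neither overlapped H3K4me3 or p300, and the nearest p300 peak lay 3346.5 kb away in neurons and 995 kb in proliferating cells.

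**Figure D2:**
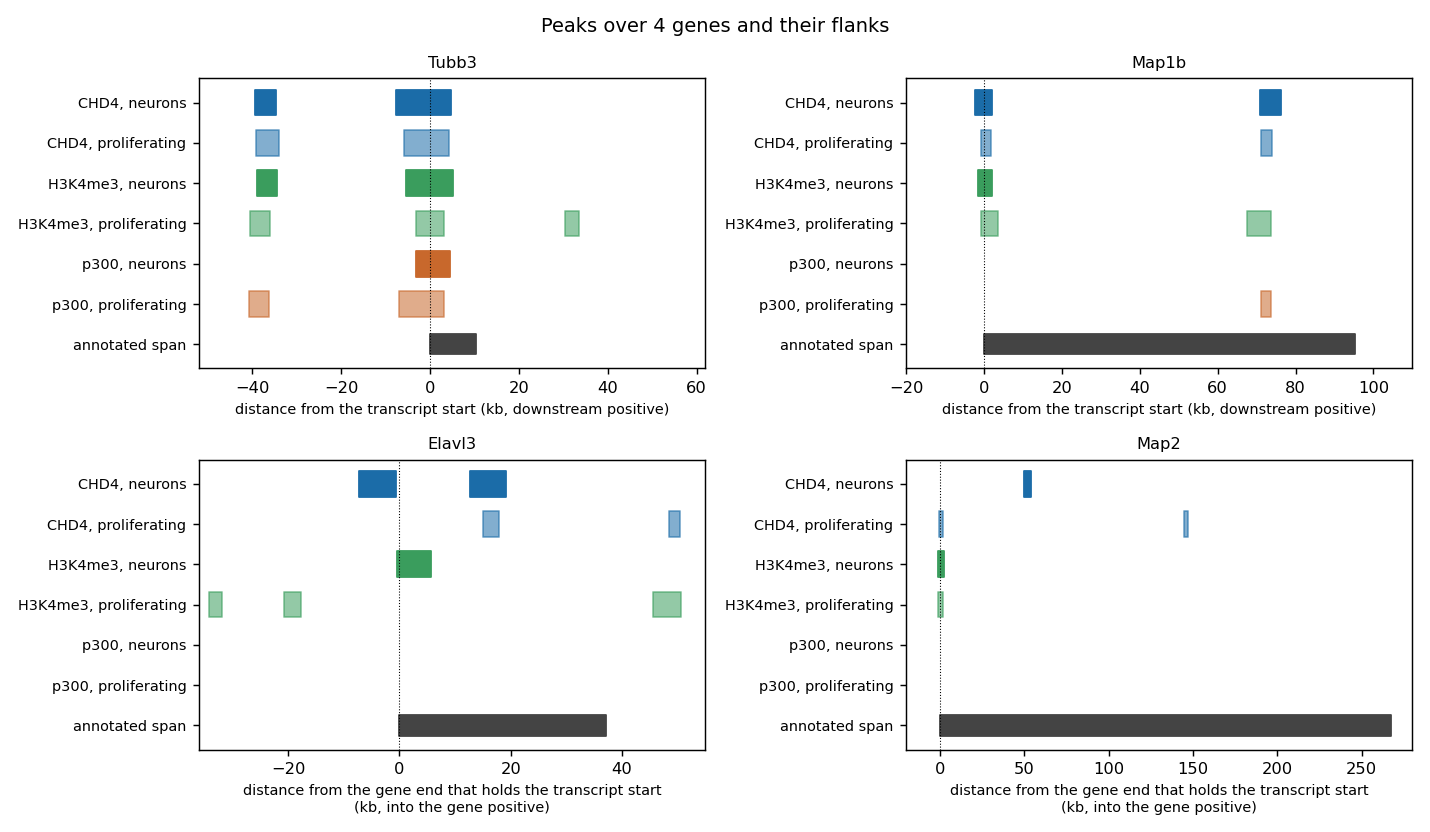
Peaks of the 6 lists over Tubb3, Map1b, Elavl3 and Map2, drawn to scale against the distance in kb from the transcript start or the gene end that holds it, with the annotated span as a dark bar below and full colour for neurons, pale for proliferating cells. Tubb3 carries all 6 peaks at its start, Map1b has a site inside the gene near 72 kb, and Elavl3 has H3K4me3 across its gene end and CHD4 outside it in neurons only.

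Stmn1 and Stmn2 encode stathmins, of which Stmn1 is also expressed in dividing cells and Stmn2 (SCG10) is neuronal. Stmn1, the shorter gene (chr4:134468320-134473843), had CHD4 and H3K4me3 at its lower-coordinate end in both states and p300 there in proliferating cells only. This pattern was found at 884 of the 21887 genes (4.04%). CHD4 spanned 3350 bp in neurons (chr4:134466501-134469850, 62.4th percentile) and 2500 bp in proliferating cells (chr4:134467251-134469750, 50.1st percentile). H3K4me3 spanned 3900 bp and 3750 bp, at the 47.3rd and 85.96th percentiles of total signal and the 11.1st and 81.4th of highest signal. The proliferating p300 peak (2450 bp, 32.6th percentile) had its highest signal at the same 50-bp step as the proliferating CHD4 peak. Stmn2 (chr3:8509527-8561604) had no peak.

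Ncam1 (chr9:49502129-49799393) had CHD4 and H3K4me3 at its higher-coordinate end in both states, and p300 in neither. Map1b and Ncam1 were among 233 genes (1.06%) with this pattern at their ends. The CHD4 peaks spanned 3100 bp in neurons (chr9:49796301-49799400, 28.1st percentile) and 2900 bp in proliferating cells (chr9:49796301-49799200, 31.1st percentile). H3K4me3 spanned 3000 bp and 3200 bp, at the 42.4th and 70.6th percentiles. All 4 peaks lay inside the span but for at most 7 bp. The highest CHD4 signal was low within its list, at the 6.48th percentile in neurons and the 3.29th in proliferating cells. No other peak of any list lay within the long body of Ncam1 or its flanks.

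Elavl3 had both CHD4 and H3K4me3 at a gene end in neurons only. It lies on the minus strand (chr9:22015005-22052146), with its transcript start near the higher-coordinate end. In neurons an H3K4me3 peak of 6100 bp (chr9:22046451-22052550) covered that end, and a CHD4 peak of 6600 bp (chr9:22052751-22059350) lay just outside it. In proliferating cells neither was listed. Of all genes, 16 of 21887 (0.0731%) had CHD4 and H3K4me3 at an end in neurons and no other peak at an end. Among the 134 genes with H3K4me3 in neurons only, 17 (12.7%, exact 95% interval 7.57 to 19.5) had CHD4 in neurons only, Elavl3 included. The interval covers counting error only, not the spread between libraries.

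The 2 neuron peaks at Elavl3 did not overlap. A gap of 200 bp separated them, and the CHD4 peak began 605 bp beyond the gene end and 728 bp upstream of the transcript start. Its highest signal lay 5955 bp beyond the gene end, and 3940 of its bases lay inside the neighbouring gene Zfp653 (chr9:22055411-22071395), so it cannot be assigned to Elavl3 alone. It stood at the 63.7th percentile of total signal. The H3K4me3 peak was wide and low, at the 82.8th percentile of width, the 21.2nd of total signal and the 4.36th of highest signal. The CHD4 peak was the end peak nearest the limit of 1 kb. With a limit of 500 bp it no longer counted at Elavl3, and CHD4 was at an end of 4 members in neurons. Beyond 1 kb, the next peak at any member was the proliferating H3K4me3 peak 8405 bp from Elavl3.

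Inside Elavl3 CHD4 was listed in both states, with the highest signal 16422 bp downstream of the transcript start in neurons and 16672 bp in proliferating cells. The peak spanned 6550 bp in neurons (chr9:22032951-22039500) and 2850 bp in proliferating cells (chr9:22034201-22037050), the first containing the second, at the 14.7th and 6.10th percentiles. In the flanks, proliferating cells had a CHD4 peak and an H3K4me3 peak over the adjoining ends of Ccdc151 and Prkcsh, with their highest signals inside Ccdc151, and an H3K4me3 peak at each end of Ecsit, of which the nearer was also at an end of Zfp653. None of these was listed in neurons. p300 was not listed at Elavl3 in either state.

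Counted over the members, CHD4 lay in the gene body of 3 of 10 genes in each state (Map1b, Map2 and Elavl3), against 4.49% of all genes in neurons and 4.93% in proliferating cells. H3K4me3 lay in the body of 0 genes in neurons and 1 in proliferating cells (2.24% and 3.21% of all genes). p300 lay in the body of 0 and 1 (1.37% and 3.16%). In the flanks, H3K4me3 was listed at 1 and 2 of the 10 (36.6% and 43.8% of all genes) and p300 at 0 and 1 (5.26% and 20.0%). The 3 genes with CHD4 in the body span 95.1 kb (Map1b), 267 kb (Map2) and 37.1 kb (Elavl3). The shares over all genes take no account of gene length, and none was computed for genes of like length. By total signal the CHD4 body peaks stood at the 70.1st percentile in neurons and the 74.2nd in proliferating cells at Map1b. They stood at the 28.5th and 13.0th at Map2 and the 14.7th and 6.10th at Elavl3.

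Where a member had a peak at an end in both states, the CHD4 peak was wider in neurons in 4 of 4 genes. The ratio of the width in neurons to that in proliferating cells was 1.65 at Map1b, 1.34 at Stmn1, 1.22 at Tubb3 and 1.07 at Ncam1. Over the 1640 genes with CHD4 at an end in both states the median ratio was 1.34 (quartiles 1.06 and 1.82), and 81.1% were wider in neurons. The 4 members' ratios lay between those quartiles. In each of the 4 genes the neuron peak contained the whole proliferating one. For H3K4me3 the ratios were 1.66 at Tubb3, 1.05 at Map2, 1.04 at Stmn1, 0.938 at Ncam1 and 0.805 at Map1b, around a median of 1.07 over 6427 genes (quartiles 0.937 and 1.25). For p300 the ratio at Tubb3 was 0.740, against a median of 0.930 over 196 genes (quartiles 0.756 and 1.21).

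**Figure D3:**
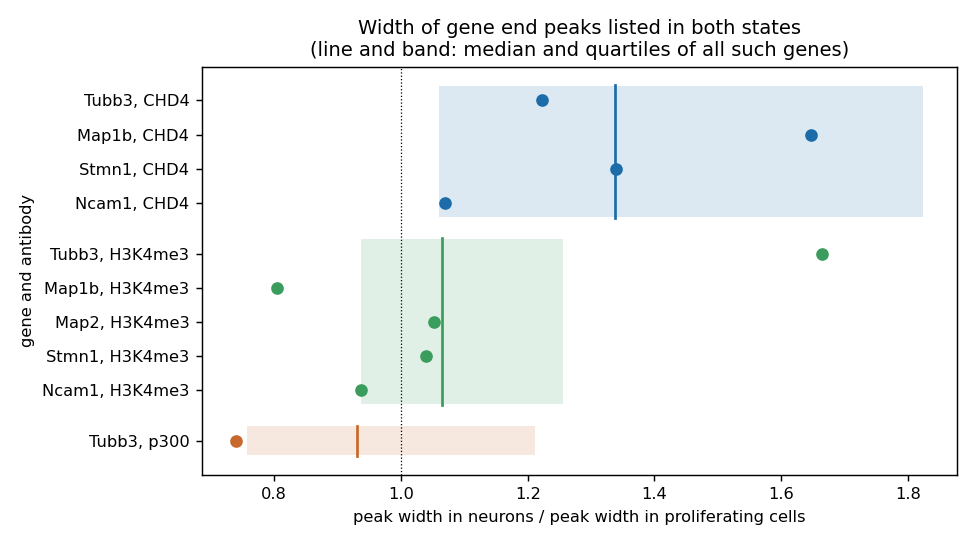
Ratio of peak width in neurons to peak width in proliferating cells for gene end peaks listed in both states (points, 1 per gene and antibody), with the median (line) and quartiles (band) of all protein-coding genes listed in both states. All 4 CHD4 points lie above 1 and inside the quartiles of all genes, and the Tubb3 H3K4me3 point at 1.66 and the Map1b one at 0.805 lie outside theirs, as does the Tubb3 p300 point at 0.740.

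CHD4 and H3K4me3 peaks of the same state overlapped at 5 of 9 CHD4 peaks around the members in neurons and 8 of 10 in proliferating cells. Over the whole lists, which hold peaks of any position, the shares were 26.8% and 42.2%. The overlapping peaks around the members include flank peaks inside Tcf25 in both states and over Ccdc151 and Prkcsh in proliferating cells. As the genes were chosen with the calls known, nothing is read from the shares in this paragraph. CHD4 peaks that overlapped p300 numbered 1 of 9 in neurons (Tubb3) and 4 of 10 in proliferating cells (Tubb3 with its flank, Map1b inside the gene, Stmn1), against 20.0% and 58.1% of the whole lists. All 5 p300 peaks around the members, 1 in neurons and 4 in proliferating cells, overlapped CHD4, as did 99.7% and 91.9% of the whole lists.

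The 4 genes without a peak stood at different distances from the nearest one. Over all genes, 7660 of 21887 (35.0%) had no peak of any list in their span or within 50 kb. Among genes spanning at least 50 kb, as these 4 do, the share was 27.1% (1338 of 4945). At the 50-kb limit itself, the last peak inside lay 36153 bp from Tubb3 and the first outside 54086 bp from Tubb3.

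Stmn2 had its nearest CHD4 peak 103 kb from the span in neurons and 105 kb in proliferating cells, and its nearest H3K4me3 peak at 103 kb and 100 kb. A proliferating p300 peak lay in the same place, at 105 kb, whereas the nearest neuron p300 peak was 11.1 Mb away. Mapt, the tau gene (chr11:104229409-104332090), had H3K4me3 at 108 kb in neurons and 107 kb in proliferating cells. Its nearest CHD4 peak lay at 414 kb and 417 kb.

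Gap43 (chr16:42248552-42340651) had every list's nearest peak over 0.5 Mb away. The nearest CHD4 peak was 534 kb away in neurons and 1121 kb in proliferating cells, and the nearest H3K4me3 peak 1161 kb and 533 kb. Dcx, on the X chromosome (chrX:143855842-143933396), had its nearest H3K4me3 peak at 1.17 Mb in each state, with CHD4 at 1.55 Mb in neurons and 2.58 Mb in proliferating cells. The median distance was 169 kb for CHD4 in neurons and 134 kb in proliferating cells over all 21887 genes. For H3K4me3 it was 41.4 kb and 17.6 kb over the 21631 genes with a peak on their chromosome.

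**Figure D4:**
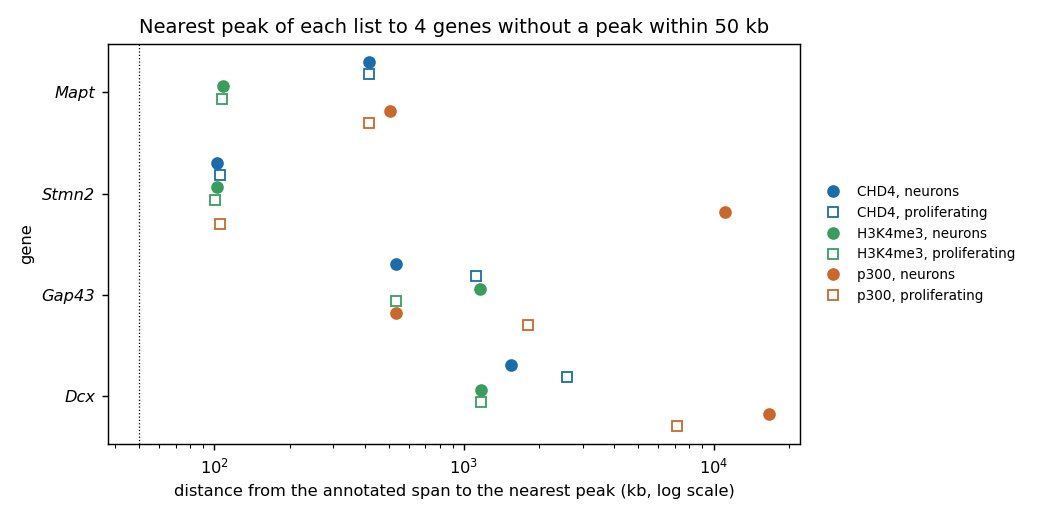
Distance in kb, on a log axis, from the annotated span of Mapt, Stmn2, Gap43 and Dcx to the nearest peak of each of the 6 lists (filled circles neurons, open squares proliferating cells), with a dotted line at the 50-kb limit. Every point lies at 100 kb or more, and the nearest neuron p300 peaks to Stmn2 and Dcx lie 11.1 and 16.7 Mb away.

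A further 38 genes of the axon and neuronal cytoskeleton place the members among their relatives. CHD4 was listed at an end of 8 of 38 in neurons (21.1%, exact 95% interval 9.55 to 37.3) and 7 in proliferating cells (18.4%, 7.74 to 34.3), with 6 in both states. These were the tubulin genes Tuba1a and Tubb2b, the doublecortin-like kinase gene Dclk2, the collapsin response mediator gene Dpysl5, and the growth cone genes Basp1 and Marcks. Nfasc, encoding the adhesion molecule neurofascin, and the kinesin gene Kif1a had CHD4 in neurons only, and Marcksl1 in proliferating cells only. H3K4me3 was listed at 15 of 38 in neurons (39.5%, 24.0 to 56.6) and 14 in proliferating cells (36.8%, 21.8 to 54.0), the difference being Map6 in neurons only. Of all protein-coding genes, 30.0% had H3K4me3 at an end in neurons and 37.6% in proliferating cells, and 9.95% and 11.8% had CHD4. Intervals cover counting error only.

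By role, the counts ran from all members of a group to none. Basp1, Marcks and Marcksl1 had H3K4me3 at an end in 3 of 3 genes in both states, and CHD4 in 2 of 3 in neurons and 3 of 3 in proliferating cells. The kinesin genes had H3K4me3 in 4 of 4 in both states and CHD4 in 1 and 0. The neurofilament genes, encoding intermediate filaments of mature axons, had CHD4 in 0 of 5 in both states and H3K4me3 at Ina alone. The other stathmin genes (Stmn3, Stmn4), the other neuronal Elav genes (Elavl2, Elavl4) and the ankyrin and spectrin genes (Ank2, Ank3, Sptbn4) had neither mark at an annotated end. Nefl, Nefm, Ncam2 and Chl1 were empty over their span and flanks, like Mapt, Dcx, Stmn2 and Gap43.

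Tubb2b, another β-tubulin gene, had the Tubb3 pattern, with a peak at a gene end in all 6 lists. Tubb4b and Actb, broadly expressed genes taken up below, also had it. The Tubb2b CHD4 peak stood at the 79.1st percentile in neurons and the 91.7th in proliferating cells, and H3K4me3 at the 94.5th and 94.0th. p300 stood at the 21.3rd percentile in neurons and the 87.4th in proliferating cells. At Nfasc the neuron CHD4 peak (chr1:132555551-132564600) was 9050 bp wide and at the 89.6th percentile. It lay wholly outside the gene span (chr1:132564690-132741848) and not at the transcript start of the promoter table, and Nfasc was listed for H3K4me3 at neither end in neurons or proliferating cells. At Kif1a the neuron CHD4 peak stood at the 20.7th percentile, beside H3K4me3 at the 71.6th in neurons and the 60.7th in proliferating cells.

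At Elavl2, Elavl4 and Ank2 the transcript start of the promoter table lies inside the annotated span, and H3K4me3 was listed at that start in both states. CHD4 was also listed at the Ank2 start in both states. At Crmp1 an H3K4me3 peak in the gene body lay at the transcript start of the promoter table in neurons only. With end and body peaks counted together, H3K4me3 was listed at 22 of the 38 genes in neurons and 20 in proliferating cells. This adds Elavl2, Elavl4, Ank2 and Dpysl2 in both states and Crmp1 in neurons only, among others. Over all genes, H3K4me3 lay at an end of 30.0% in neurons and 37.6% in proliferating cells, and in the body of 2.24% and 3.21%. The share of all genes with either was not computed, so nothing is read from the combined counts. Mapt, Dcx, Stmn2 and Gap43 had no body peak. For the members whose strand the promoter table gives, all 15 end peaks lay at the end with the transcript start.

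The last set was broadly expressed genes, mostly of the cytoskeleton. Some are relatives of the members, and others, such as Actb, Actg1, Cfl1 and Mapre1, belong to other families. Of 12 such genes, H3K4me3 was at an end of 10 in each state (83.3%, interval 51.6 to 97.9), and CHD4 at 7 in neurons (58.3%, 27.7 to 84.8) and 6 in proliferating cells (interval 21.1 to 78.9). Tubb5, Tubb4b, Map4, Actb, Actg1 and the cofilin gene Cfl1 had CHD4 in both states, and Tuba1b in neurons only. p300 was at 2 and 5 of the 12, with Tubb4b and Actb in both states. For all protein-coding genes the shares were 30.0% in neurons and 37.6% in proliferating cells for H3K4me3. They were 9.95% and 11.8% for CHD4, and 1.24% and 8.44% for p300. Elavl1, the broadly expressed relative of Elavl3, had H3K4me3 at an end in both states (83.0th percentile in neurons, 76.7th in proliferating cells) and CHD4 in neither. Elavl3 had both at an end in neurons only. That CHD4 peak lay wholly outside the Elavl3 span and reached into Zfp653, and CHD4 was listed inside Elavl3 in both states. Map4, related to Map2 and Mapt, had CHD4 at the 17.5th percentile in neurons and the 45.7th in proliferating cells. The differences between these lists were not tested.

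**Figure D5:**
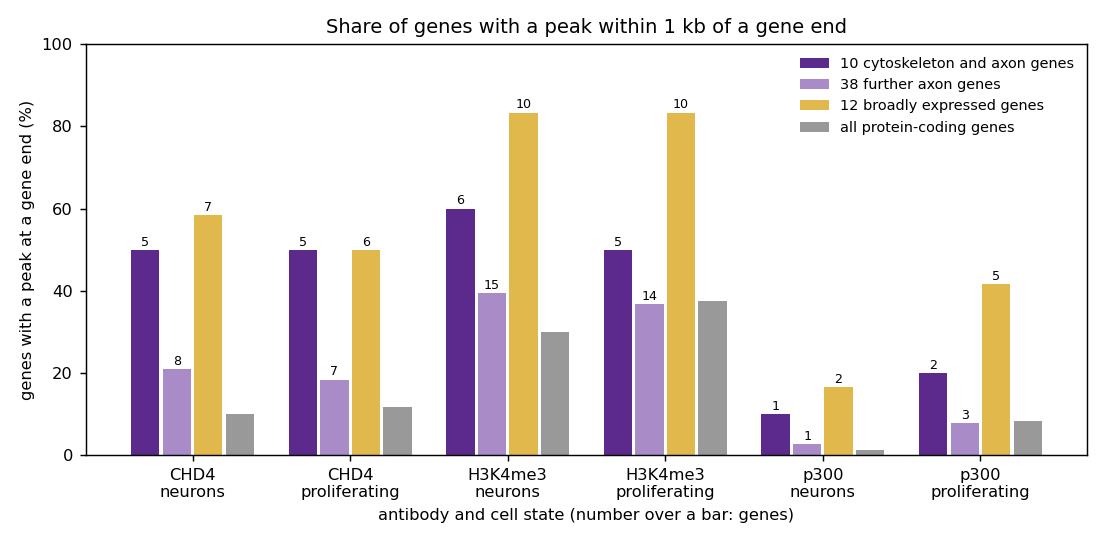
Share of genes (percent) with a peak within 1 kb of a gene end in each of the 6 lists, for the 10 cytoskeleton and axon genes, 38 further axon genes, 12 broadly expressed genes and all 21887 protein-coding genes, with the number of genes over the bars of the named lists. The broadly expressed genes have the highest bar in all 6 lists, at 10 of 12 genes for H3K4me3 in each state, except that CHD4 in proliferating cells is level with the 10 genes (6 of 12 and 5 of 10).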

How the data were processed

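Antibodies to CHD4, H3K4me3 and p300, and IgG, were each used on neurons and proliferating iMOPs, 8 libraries in all. Bowtie2, deepTools, SEACR and the build mm10 are named in the submitters' processing notes. Versions, roles, thresholds, the use of IgG and any pooling are not stated there. The 6 peak lists deposited by the authors give position, total signal and highest signal with its position. The scaling of this signal is unknown, so it only ranked peaks within a list. Coordinates run in 50-bp steps but for 6 values and are printed counted from 1.

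Protein-coding RefSeq genes (GRCm38.p6) on numbered chromosomes, X and Y were used. A peak counted where it shared 1 bp with a window. Strand came from the promoter table, for 5 members. Intervals are exact Clopper-Pearson at 95%. Python 3.11.15 was used with pandas 2.3.3, numpy 2.4.6, matplotlib 3.10.9 and SciPy 1.17.1, and peak assignment was checked on simulated data. With 1 library per group no test was made. Read depth is unknown.

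The members and all gene lists were chosen with earlier results of these data known. The genes named were all members, the list genes whose CHD4 or H3K4me3 listing at an end differed between states (up to 6 a role group), up to 3 listed in both with the highest percentile, and genes whose end lay under a flank peak. Elavl1, Map4, Mc1r, the long non-coding RNA genes, genes without peaks and genes with a peak in the body were named after their values were seen. The alternatives varied the end window, flank, peak strength, list size, overlap, gene end and ranking value.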

Additional observations from a re-analysis of the deposited data

How the results depend on the processing

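Of 96 alternative values for 24 results, 59 stayed close and 37 moved. Close means within 1.5 times for a count, and within the exact 95% binomial interval of the percentile for a median. That interval was taken over all peaks of the list, so it is narrow. It does not measure the spread among the few member peaks, and the p300 median in neurons is 1 peak, at Tubb3. No paired analysis was possible because each group has 1 library. Gene end windows of 500 bp and 2.5 kb moved no count by more than 1.5 times. With the stronger 50% of each list, CHD4 at a gene end was counted at 3 members in neurons and 2 in proliferating cells, H3K4me3 at 2 in neurons and p300 at 1 in proliferating cells. CHD4 in the gene body was then at 1 in each state and H3K4me3 there at 0 in proliferating cells. CHD4 in a flank was at 0 and 1, and H3K4me3 in a flank at 1 in proliferating cells. With lists of equal size, proliferating p300 was at 1 gene end and 0 flanks, and proliferating H3K4me3 in 0 gene bodies. Requiring 50% of the peak inside the window gave CHD4 at 1 and 3 ends, H3K4me3 at 3 and 2, and p300 at 0 and 1. Counting the transcript start only, which the promoter table gives for 5 members, gave CHD4 at 3 in each state, and H3K4me3 at 3 and p300 at 1 in proliferating cells. A flank of 20 kb gave CHD4 at 0 and 1, H3K4me3 at 0 in neurons and p300 at 0 in proliferating cells. A flank of 100 kb gave CHD4 at 2 in neurons, H3K4me3 at 4 in each state and p300 at 2 in proliferating cells. Ranking by highest signal moved the median percentiles to 48.6 and 49.1 for CHD4, 13.6 and 61.3 for H3K4me3, and 43.9 and 42.2 for p300 in neurons and proliferating cells. Beyond the settings that use fewer peaks, fewer genes or other limits, the cause was not tested.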
